A study of Danio rerio with 24 samples.

Results

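The glutathione, glucuronosyl and sulfo transferases of larval zebrafish liver were examined as a group. They were taken as every gene in the count table whose symbol begins with gst and a letter, or with ugt or sult and a digit, with letter case ignored. This gave 67 of 32520 genes, made up of 18 glutathione S-transferases (GST), 30 UDP-glucuronosyltransferases (UGT) and 19 sulfotransferases (SULT). All 67 had at least 1 count in the 24 libraries. The rule used symbols only, and no measured value or enzyme activity, so GSTCD is counted among the 18 GSTs by its symbol.

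Each library was made from 13 livers of 1 clutch, dissected and pooled at 13 days post fertilization (dpf). There were 3 libraries of miR-21OE-NCD, 3 of miR-21OE-HCD, 9 of WT-HCD and 9 of WT-NCD livers. The miR-21OE larvae carried a transgene in which the hepatocyte promoter fabp10a drives the microRNA precursor dre-mir-21-1 and the fluorescent protein Dendra2, with a lens marker in which cryaa drives mCherry. WT larvae were siblings without the transgene, and there was no transgenic control lacking the microRNA, so effects of the microRNA, of Dendra2 and of the insertion cannot be told apart. The founder line of the transgenic larvae is not given in the sources used here. HCD was a larval feed with 10% cholesterol added, given from 6 dpf, and NCD was the feed without added cholesterol. The labels place the libraries in 9 batches, numbered here 1 to 9. Batches 1 to 6 held 1 WT library per diet, and batches 7 to 9 held 1 library of each of the 4 groups.

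Phase II enzymes attach a polar group to a drug, a toxicant, a steroid, a bile pigment or another lipophilic compound. GSTs add glutathione to electrophiles, UGTs add a sugar from a UDP-sugar, in most cases glucuronic acid, and SULTs add sulfate from the donor PAPS. The products are more soluble in water and leave the cell through exporters such as those of the ABCC family. Hepatocytes carry most of this activity in vertebrates. Zebrafish have many copies of these genes, often in tandem, including a UGT5 family that mammals lack.

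Total counts ranged from 16942574 to 36641566 per library. Levels are given as CPM, reads counted per megaread of a library, scaled over all 24 libraries by the TMM method of edgeR and not corrected for gene length, so they are compared between libraries and not between genes. Fold changes are log2 values with a standard error (SE), and a gene was called when its adjusted p from edgeR's quasi-likelihood F-test with batch as a block was below 0.05. The adjustment (Benjamini-Hochberg) ran over all genes of the fit. The 8 hepatocyte markers, none of them at 0 in any group, summed to 54104 to 78679 CPM in miR-21OE-NCD, 54333 to 75214 CPM in miR-21OE-HCD, 11950 to 77662 CPM in WT-HCD and 35419 to 86666 CPM in WT-NCD livers. This sum was lower in WT-HCD than in WT-NCD in 8 of 9 batches, with ratios of 0.337 to 1.02 and a median of 0.666. Of the 8 markers, 7 had a log2 fold change below 0 and 1 above, from -1.07 to 2.03 with a median of -0.34. Among them 1 was called lower and 1 higher (25%, against 7.48% of all genes). WT-HCD 1, with a TMM factor of 2.10, had the lowest sum. In every batch the TMM factor was higher in WT-HCD than in WT-NCD, and a higher factor lowers the scaled level. On library totals, without TMM, the median log2 fold change of the 8 markers was 0.01, against 0.39 over all genes. Neutrophil markers (4 genes) summed to 1.49 to 294 CPM in WT-HCD and 0.654 to 4.98 CPM in WT-NCD livers and were higher in WT-HCD in 8 of 9 batches. Macrophage markers (6 genes) summed to 23.0 to 114 CPM in WT-HCD and 16.0 to 34.1 CPM in WT-NCD livers, higher in 8 of 9 batches, and biliary markers (4 genes) to 1051 to 4037 CPM in WT-HCD and 875 to 2264 CPM in WT-NCD livers, higher in 9 of 9. The part of these cells in the results was not tested. In bulk livers, fewer hepatocytes and less of a transcript per hepatocyte cannot be told apart.

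On HCD, WT livers had less transcript of the 3 theta GSTs, of gstr and gstk1, and of ugt5a1, ugt5a2 and UGT8, and more transcript of sult3st4, sult5a1, gsto2 and ugt1b1. Of 65 genes tested, 12 were called (18.5%), with 4 higher and 8 lower. Among all 23934 genes tested the share called was 7.48%, with 4.09% higher and 3.4% lower. The median log2 fold change of the 65 genes was -0.17, against 0.04 over all genes, and 44 of the 65 had a fold change below 0. At an unadjusted p below 0.05 there were 29 of the 65, against 21.1% of all genes. The genes gstk2 and ugt5g2, with 7 and 2 counts in all 24 libraries, had too few counts to be tested.

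**Figure D1:**
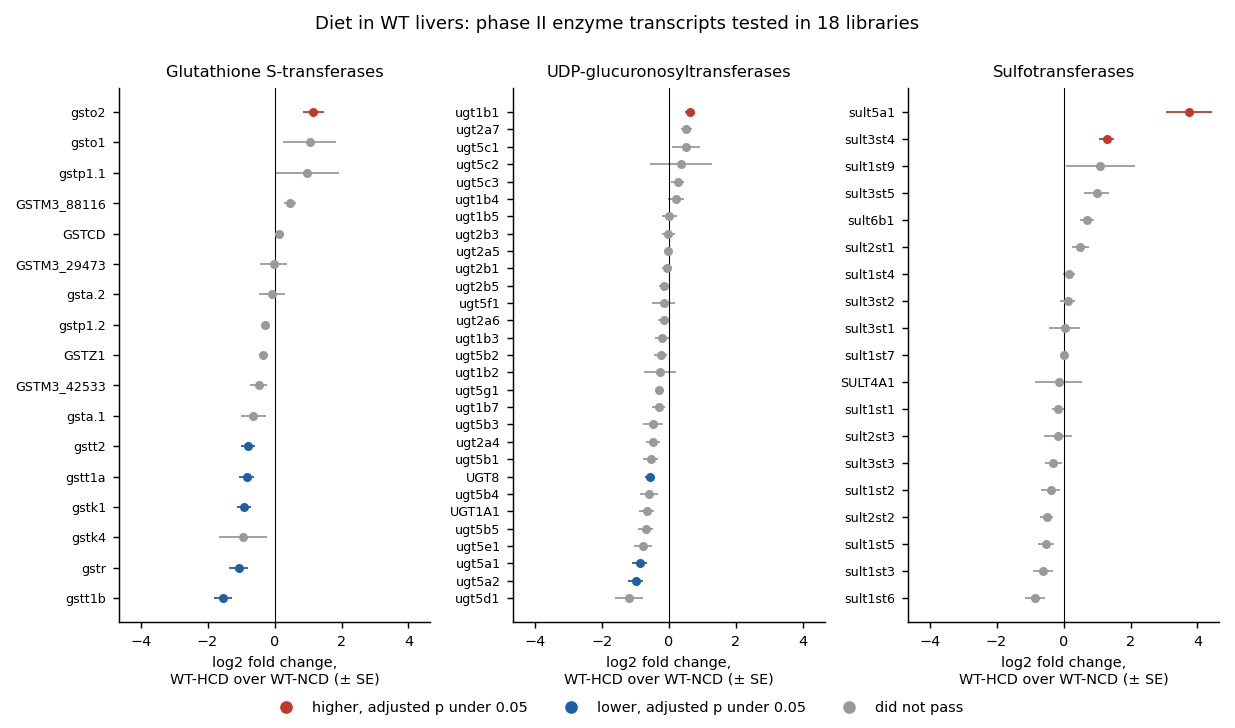
Log2 fold change of WT-HCD over WT-NCD with its SE for the 65 genes tested, 1 panel per family, sorted by value, from 18 libraries in 9 batches. Red points were higher and blue points lower at an adjusted p below 0.05. The called GSTs lie at the lower end of their panel except for gsto2, and both called SULTs lie at the upper end of theirs.

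Of the 17 GSTs tested, 5 were lower and 1 higher, and the family's median log2 fold change was -0.33. All 3 theta-class genes were lower. The largest of these changes was that of gstt1b (ENSDARG00000017388), a theta GST, a class that in mammals acts on small halogenated compounds. It was measured at 0.766, 4.8 and 26.9 CPM (lowest, median, highest of 9) in WT-HCD livers and 5.07, 18.9 and 31.5 CPM in WT-NCD livers. The groups overlapped, since WT-HCD 2, 3, 8 and 9 lay within the WT-NCD range, but within batches 8 of 9 pairs were lower on HCD. The log2 fold change was -1.54 (SE 0.27, adjusted p = 0.00516 by edgeR), and the call held in all 18 fits that left out 1 library. With batch as a block, leaving out either WT library of a batch removed that pair from the diet estimate. The 18 fits are thus close to 9 separate checks, here and below. The paralog of gstt1b, gstt1a (ENSDARG00000042428), had 25.2, 135 and 274 CPM in WT-HCD livers and 122, 188 and 311 CPM in WT-NCD livers. It was lower in 9 of 9 batches (log2 fold change -0.84, SE 0.24, adjusted p = 0.0498), and the call held in 5 of the 18 fits. The third theta gene, gstt2, had 7.54, 22 and 54.7 CPM in WT-HCD livers and 15, 38.9 and 79.9 CPM in WT-NCD livers, and was lower in 8 of 9 batches (log2 fold change -0.79, adjusted p = 0.0356, held in 7 of the 18 fits).

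The rho-class gene gstr (ENSDARG00000042620), of a GST class found in fish, had 20.1, 123 and 228 CPM in WT-HCD livers and 106, 208 and 308 CPM in WT-NCD livers. It was lower in 9 of 9 batches, by the widest margins in batches 1, 6 and 7, and its log2 fold change was -1.07 (SE 0.28, adjusted p = 0.0369, held in 11 of the 18 fits). These were also the 3 batches with the lowest hepatocyte marker ratios (0.337, 0.404 and 0.522). The kappa-class gene gstk1, whose mammalian counterpart is in mitochondria and peroxisomes, had 5.02, 19.2 and 36.8 CPM in WT-HCD livers and 14.2, 31.3 and 40.4 CPM in WT-NCD livers. It too was lower in 9 of 9 batches (log2 fold change -0.92, adjusted p = 0.024, held in 14 of the 18 fits). Its neighbour gstk4 had a log2 fold change of -0.94, which did not pass the test. The pi-class gene gstp1.2 had 41.5, 71.5 and 191 CPM in WT-HCD livers and 54.2, 71.6 and 262 CPM in WT-NCD livers and did not pass either (log2 fold change -0.27, SE 0.12, adjusted p = 0.205).

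The omega-class gene gsto2 (ENSDARG00000033285), of a class whose members reduce dehydroascorbate and other substrates, went the other way. It had 2.48, 4.44 and 20.4 CPM in WT-HCD livers and 1.83, 2.74 and 3.16 CPM in WT-NCD livers. The WT-NCD libraries lay close together and 8 of the 9 WT-HCD libraries lay above all of them. The exception was WT-HCD 9, and the highest values were those of WT-HCD 2 and WT-HCD 6. The log2 fold change was 1.15 (SE 0.31, adjusted p = 0.0395), and the call held in 4 of the 18 fits that left out a library. WT-HCD 6 also had the highest neutrophil marker sum, 294 CPM, against 0.654 to 4.98 CPM in WT-NCD livers. WT-HCD 2, with the highest gsto2 level, had the highest sums among WT-HCD libraries of exocrine pancreas markers (9 genes, 26262 CPM, against 1188 to 23189 CPM in WT-NCD livers), intestinal markers (11 genes, 1065 CPM, against 397 to 611 CPM in WT-NCD livers) and stellate cell markers (5 genes, 497 CPM, against 76.2 to 303 CPM in WT-NCD livers). The part of these cells in the gsto2 result was not tested. The adjacent gsto1 reached 5.19 CPM in WT-HCD 2 and 2.68 CPM in WT-HCD 6, with a WT-NCD maximum of 0.537 CPM, and its log2 fold change of 1.06 (SE 0.79) did not pass.

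Of the 29 UGTs tested, 3 were lower and 1 higher, with a family median of -0.26. The paired neighbours ugt5a1 and ugt5a2 were both lower. The values of ugt5a1 (ENSDARG00000016479) were 8.77, 27.4 and 54.5 CPM in WT-HCD livers and 28.4, 48.4 and 98.5 CPM in WT-NCD livers, and the log2 fold change was -0.87 (SE 0.22, adjusted p = 0.031, held in 8 of the 18 fits that left out a library). Those of ugt5a2 (ENSDARG00000093640) were 3.81, 12.1 and 21.6 CPM in WT-HCD livers and 14.2, 19.2 and 37.5 CPM in WT-NCD livers, and the log2 fold change was -0.995 (SE 0.23, adjusted p = 0.0227, held in 16 of the 18 fits). Each was lower in 8 of 9 batches, and batch 9 was the exception for both. UGT8, whose mammalian counterpart adds galactose to ceramide rather than glucuronic acid to a toxicant, had 30.7, 56.4 and 91.6 CPM in WT-HCD livers and 53.6, 67.1 and 123 CPM in WT-NCD livers (log2 fold change -0.57, SE 0.14, adjusted p = 0.0292, held in 8 of the 18 fits).

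The 1 UGT that was higher on HCD was ugt1b1 (ENSDARG00000097491), a gene of a run of 6 neighbouring ugt1b genes. It had 14.2, 36.7 and 149 CPM in WT-HCD livers and 6.34, 24.3 and 84.6 CPM in WT-NCD livers. The groups overlapped widely because the level differed between batches, but 8 of 9 pairs were higher on HCD (log2 fold change 0.63, SE 0.16, adjusted p = 0.031, held in 5 of the 18 fits that left out a library). Of the other 5 genes of that run none passed, with log2 fold changes of -0.31 (ugt1b7) to 0.21 (ugt1b4). The gene with the symbol of the bilirubin-conjugating enzyme, UGT1A1, had 51.5, 160 and 780 CPM in WT-HCD livers and 113, 289 and 698 CPM in WT-NCD livers, and it did not pass (log2 fold change -0.67, SE 0.23, adjusted p = 0.107). Nor did the UGT2 genes ugt2a4, at 58.5, 108 and 294 CPM in WT-HCD livers and 78.7, 177 and 295 CPM in WT-NCD livers (log2 fold change -0.49, SE 0.21, adjusted p = 0.188), and ugt2b1, at 25.9, 53.8 and 107 CPM in WT-HCD livers and 38.5, 60.6 and 85.6 CPM in WT-NCD livers (log2 fold change -0.07, SE 0.14, adjusted p = 0.852).

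Of the 19 SULTs tested, 2 were higher and none lower, with a family median of -0.00. The larger in counts was sult3st4 (ENSDARG00000040781), a sulfotransferase of the SULT3 family. It had 3.88, 15.6 and 23.8 CPM in WT-HCD livers and 2.3, 5.75 and 10.3 CPM in WT-NCD livers. All batches but batch 4 were higher on HCD, and 6 of the 9 WT-HCD libraries lay above all WT-NCD libraries. The log2 fold change was 1.29 (SE 0.22, adjusted p = 0.00529) and the call held in all 18 fits that left out a library. sult5a1 had few counts, 4 to 84 in each WT-HCD library and 0 to 6 in each WT-NCD library. Over each group these made 211 counts in WT-HCD livers and 10 counts in WT-NCD livers, of which 6 libraries had 0. It was higher in 9 of 9 batches (adjusted p = 0.00746), and its fitted log2 fold change of 3.74 (SE 0.69) rests on these few counts. WT-HCD 6 and WT-HCD 1 had the highest values. sult6b1 had 36, 51.7 and 99.8 CPM in WT-HCD livers and 24.6, 33 and 53.7 CPM in WT-NCD livers, higher in 8 of 9 batches, and just missed the threshold (log2 fold change 0.71, SE 0.21, adjusted p = 0.0574). Among the SULT2 genes, a family that in mammals sulfates hydroxysteroids and bile acids, the gene with most counts, sult2st2, had 29.6, 95.6 and 201 CPM in WT-HCD livers and 77.6, 141 and 168 CPM in WT-NCD livers and did not pass (log2 fold change -0.51, adjusted p = 0.135). sult3st2 had 58.5, 77.6 and 128 CPM in WT-HCD livers and 45.5, 79.4 and 124 CPM in WT-NCD livers (log2 fold change 0.12, SE 0.22, adjusted p = 0.823).

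**Figure D2:**
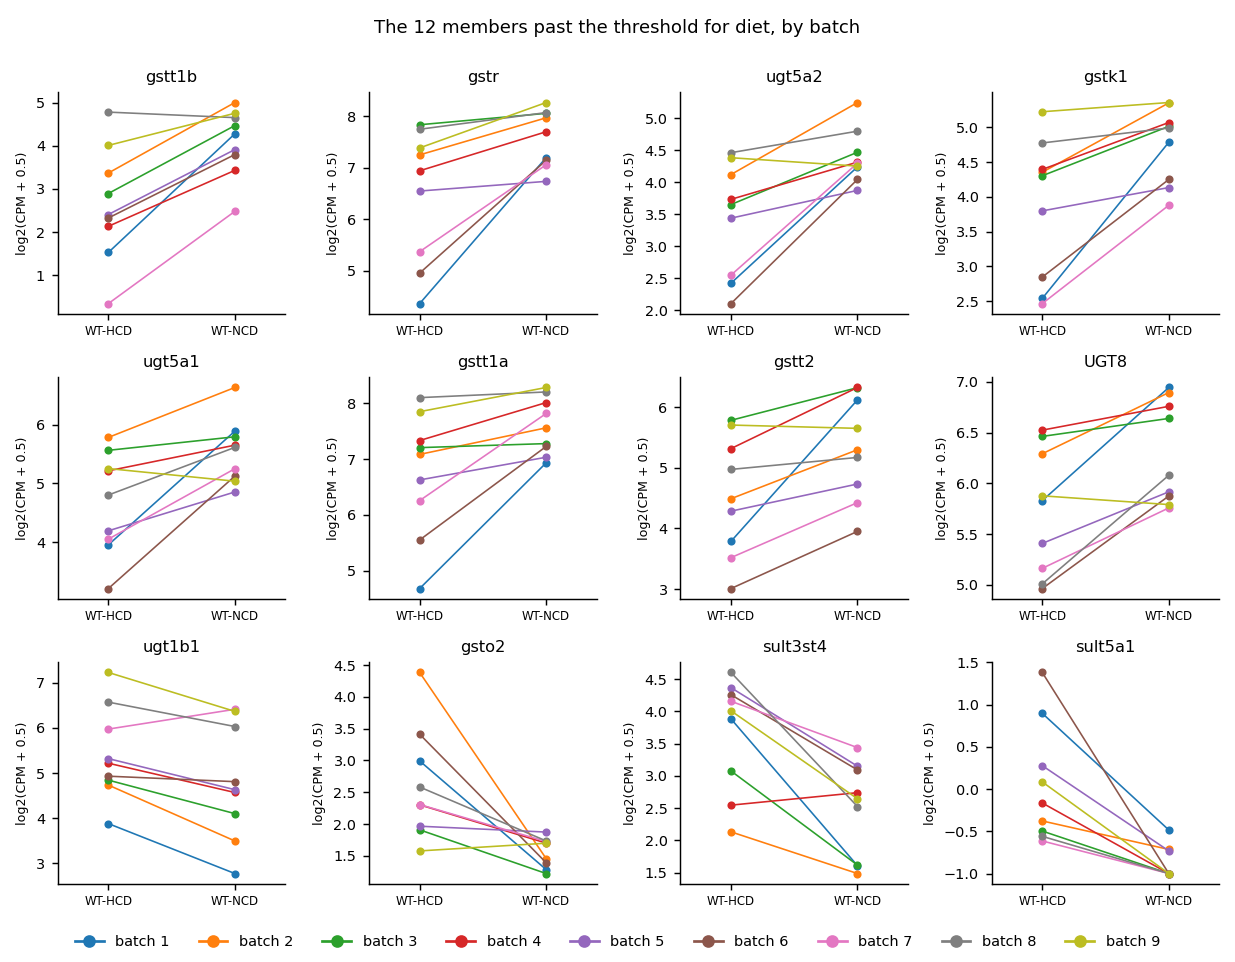
Level of the 12 called genes in each WT library, as log2 of CPM plus 0.5, with WT-HCD left of WT-NCD and a line joining the 2 libraries of a batch, ordered from the most negative fold change to the most positive. In the first 8 panels nearly all lines are lower at WT-HCD, and that of batch 1 is among the steepest. In the last 4 panels they are higher, with 1 exception each for ugt1b1, gsto2 and sult3st4 (batches 7, 9 and 4).

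The hepatocyte marker sum, in CPM scaled by TMM, itself differed with diet, and its part in these results was not tested apart from diet. In a fit with the log2 of that sum as a covariate, an alternative chosen after seeing the data, 0 of the 65 genes and 22 of all 23934 (0.0919%) were called, so higher calls were lost as well as lower ones. The log2 fold changes of the 8 lower genes then lay between -0.77 (gstt1b) and 0.02 (gstt1a), with gstr at -0.02 and gstk1 at -0.09. Those of sult3st4, sult5a1 and ugt1b1 were 1.26, 3.99 and 0.71, beside 1.29, 3.74 and 0.63 without the covariate, and that of gsto2 was 0.32. In the 5 batches whose marker ratio was at least 0.6, also chosen after seeing the data, 2 genes were called, sult5a1 and ugt1b1, both higher (1.72% of all genes). There the log2 fold change of gstt1b was -1.06 (adjusted p = 0.075) and that of sult3st4 was 1.25 (adjusted p = 0.066). Without the batch block, 2 of the 65 genes were called (sult5a1 and gsto2, both higher), and 276 of all genes (1.15%). DESeq2 called 19 with the block (13.2% of all genes) and 4 without it (3.84%). Scaling by library totals raised the median of all genes to 0.39 and that of the 65 genes to 0.16, and the calls were then 10 higher and 5 lower (16% of all genes). The family medians were then 0.02 (GST), 0.09 (UGT) and 0.22 (SULT). Each of the 12 genes kept its direction under that scaling.

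Other genes of the pathway were counted by role, beside 7.48% called over all genes. Of 17 genes that supply the cofactors, 1 was lower and none higher (5.88%). It was IDH1, the cytosolic enzyme that makes NADPH from isocitrate, at 53.7, 189 and 294 CPM in WT-HCD livers and 292, 474 and 873 CPM in WT-NCD livers, ranges that met only at their ends (log2 fold change -1.66, SE 0.18, adjusted p = 0.000279). Of 13 other phase II enzymes, 3 were lower, among them the epoxide hydrolases EPHX1 and EPHX2, and none higher (23.1%). Of 18 ABC exporters and SLCO carriers tested, 3 were higher and none lower (16.7%), led by ABCC4, which exports organic anions and conjugates (5.65, 16.3 and 32.8 CPM in WT-HCD livers and 2.61, 6.99 and 13.7 CPM in WT-NCD livers, log2 fold change 1.26, adjusted p = 0.00214). Of 26 regulators and their targets, 5 were lower and 1 higher (23.1%). The fatty acid receptor pparaa was lower (log2 fold change -1.29, SE 0.13, adjusted p = 0.000246), as was NR1I2, the pregnane X receptor that in mammals induces UGT, SULT and GST genes (log2 fold change -0.60, SE 0.13, adjusted p = 0.015). The NR1I2 call was lost without the block (adjusted p = 0.379) and on library totals (adjusted p = 0.0864), and the ABCC4 and EPHX2 calls were lost without the block (adjusted p = 0.09 and 0.199). NR1H3, the oxysterol receptor LXR alpha, was higher (log2 fold change 0.89, SE 0.19, adjusted p = 0.0155). The fits that used the hepatocyte marker sum or ratio gave 23 values for named genes of these lists, over all contrasts. Of these values 12 missed the threshold and none changed direction, and they are not split by contrast here.

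In miR-21OE livers, averaged over both diets, 2 UGTs were higher and 2 SULTs and 1 UGT were lower than in WT livers of the same batches, and no GST was called. These were 5 of 64 genes tested (7.81%), with 2 higher and 3 lower, against 2.17% of all 21660 genes (1.24% higher and 0.923% lower). The median log2 fold change was -0.01, against -0.00 over all genes, and 22 of the 64 had an unadjusted p below 0.05, against 13.4% of all genes. Without the block 1 of the 64 was called (sult3st3) and 84 of all genes (0.388%). DESeq2 called 11 with the block (5.43% of all genes) and 6 without it (2.37%). This contrast joins the comparisons on both diets, which shared the fit but no library.

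**Figure D3:**
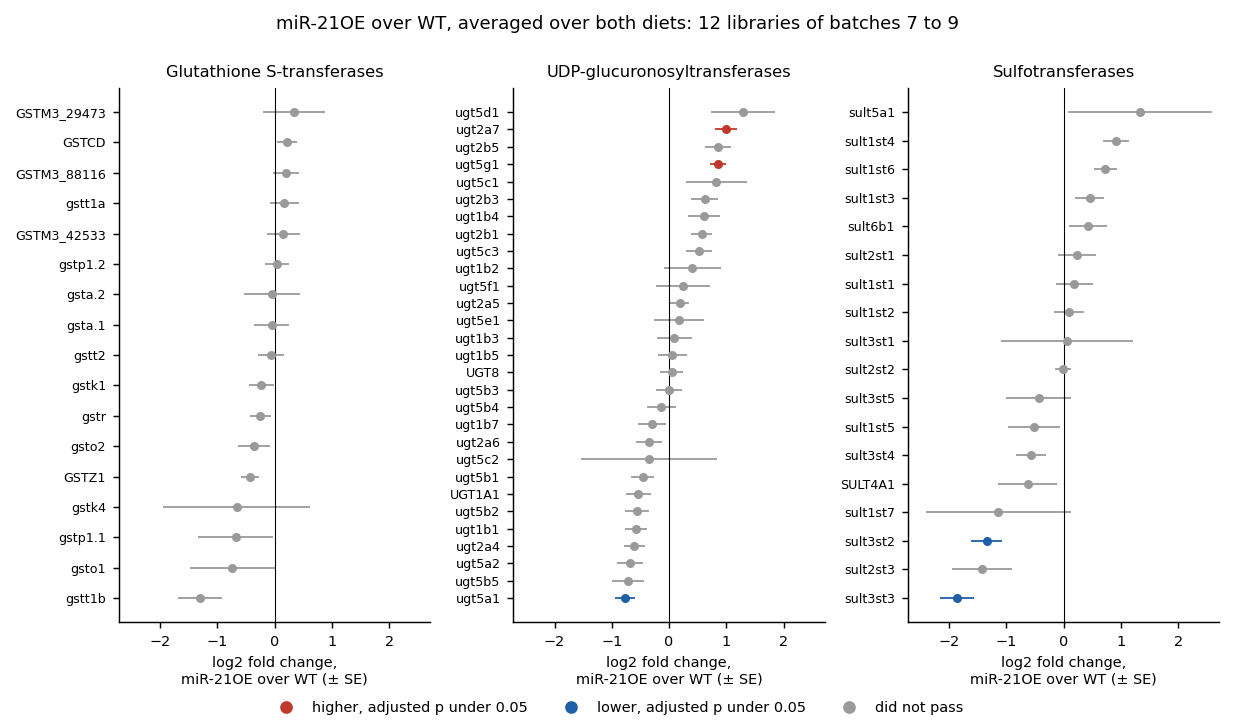
Log2 fold change of miR-21OE over WT, averaged over both diets, with its SE, for the 64 genes tested in the 12 libraries of batches 7 to 9, 1 panel per family. Red points were higher and blue points lower at an adjusted p below 0.05. The GST panel holds no called gene, and sult3st3 has the most negative value of all panels.

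Both lower SULTs belong to a run of 4 neighbouring SULT3 genes. sult3st3 (ENSDARG00000042920) had 1.27, 1.4 and 2.37 CPM in the miR-21OE-NCD livers of batches 7, 8 and 9, against 4.72, 7.44 and 4.75 CPM in the WT-NCD livers. It had 1.56, 2.09 and 0.804 CPM in the miR-21OE-HCD livers, against 2.84, 8.66 and 7.37 CPM in the WT-HCD livers. All 6 miR-21OE libraries lay below all 18 WT libraries, those of batches 1 to 6 included, whose lowest value was 2.51 CPM. The averaged log2 fold change was -1.86 (SE 0.30, adjusted p = 0.00698), and it passed under all 8 alternative settings fixed for this contrast and in all 12 fits that left out a library. The level in WT livers also varied, up to 45.8 CPM in WT-HCD 3. sult3st2 (ENSDARG00000093619) had 39.4, 19.7 and 33.9 CPM in miR-21OE-NCD livers, against 111, 58.1 and 45.5 CPM in WT-NCD livers, and 26.6, 37.7 and 46 CPM in miR-21OE-HCD livers, against 69.7, 128 and 111 CPM in WT-HCD livers. The 2 genotypes did not overlap on either diet, with the smallest gap in batch 9 on NCD (log2 fold change -1.34, SE 0.27, adjusted p = 0.0241, held in 6 of the 12 fits). Of the other 2 genes in the run, sult3st4 had 10.2, 12.9 and 5.71 CPM in miR-21OE-HCD livers, against 17.3, 23.8 and 15.6 CPM in WT-HCD livers, with all 3 pairs lower, and 12.5, 3.72 and 4.63 CPM in miR-21OE-NCD livers, against 10.3, 5.25 and 5.75 CPM in WT-NCD livers, with batch 7 higher. It did not pass (averaged log2 fold change -0.56, SE 0.26, adjusted p = 0.383). sult3st5 was at 0.248 to 0.926 CPM in miR-21OE-NCD livers, against 0.0871 to 0.935 CPM in WT-NCD livers, and at 0.354 to 0.58 CPM in miR-21OE-HCD livers, against 0.881 to 2.19 CPM in WT-HCD livers, and did not pass (-0.43, SE 0.57, adjusted p = 0.819). Near-identical copies can share reads, and how the counting split them is not stated, so values within this run are uncertain.

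The 2 higher genes were UGTs. ugt5g1 (ENSDARG00000032862) had 35, 34.9 and 41.6 CPM in miR-21OE-NCD livers, against 17.9, 17.4 and 26.8 CPM in WT-NCD livers, and 35.3, 24.8 and 36.8 CPM in miR-21OE-HCD livers, against 15.2, 14.9 and 25.6 CPM in WT-HCD livers. It was higher in 3 of 3 batches on each diet, and only WT-HCD 9 of these WT libraries reached the range of its miR-21OE counterparts. The log2 fold change was 0.85 (SE 0.13, adjusted p = 0.00682) and the call held in all 12 fits. WT livers of batches 1 to 6 held up to 35.9 CPM, so across all batches the genotypes overlapped. ugt2a7 (ENSDARG00000091624), of the UGT2 family that in mammals conjugates steroids and bile acids, had 14.5, 9.21 and 14.2 CPM in miR-21OE-NCD livers, against 4.23, 4.67 and 7.8 CPM in WT-NCD livers. On HCD it had 15.5, 11.8 and 13.7 CPM in miR-21OE livers, against 10.6, 6.38 and 6.57 CPM in WT livers. The genotypes did not overlap on either diet (log2 fold change 0.99, SE 0.19, adjusted p = 0.0196, held in 8 of the 12 fits).

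The lower UGT was ugt5a1, which was also lower in WT-HCD than in WT-NCD livers. It had 17.9, 23.4 and 19.4 CPM in miR-21OE-NCD livers, against 37.5, 48.4 and 32.3 CPM in WT-NCD livers, and 14, 17.9 and 21.1 CPM in miR-21OE-HCD livers, against 16.1, 27.4 and 37.6 CPM in WT-HCD livers. All 6 pairs were lower in miR-21OE livers, and the groups overlapped on HCD only (log2 fold change -0.77, SE 0.18, adjusted p = 0.0424, held in 2 of the 12 fits). In the fit of all 24 libraries its adjusted p was 0.073.

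**Figure D4:**
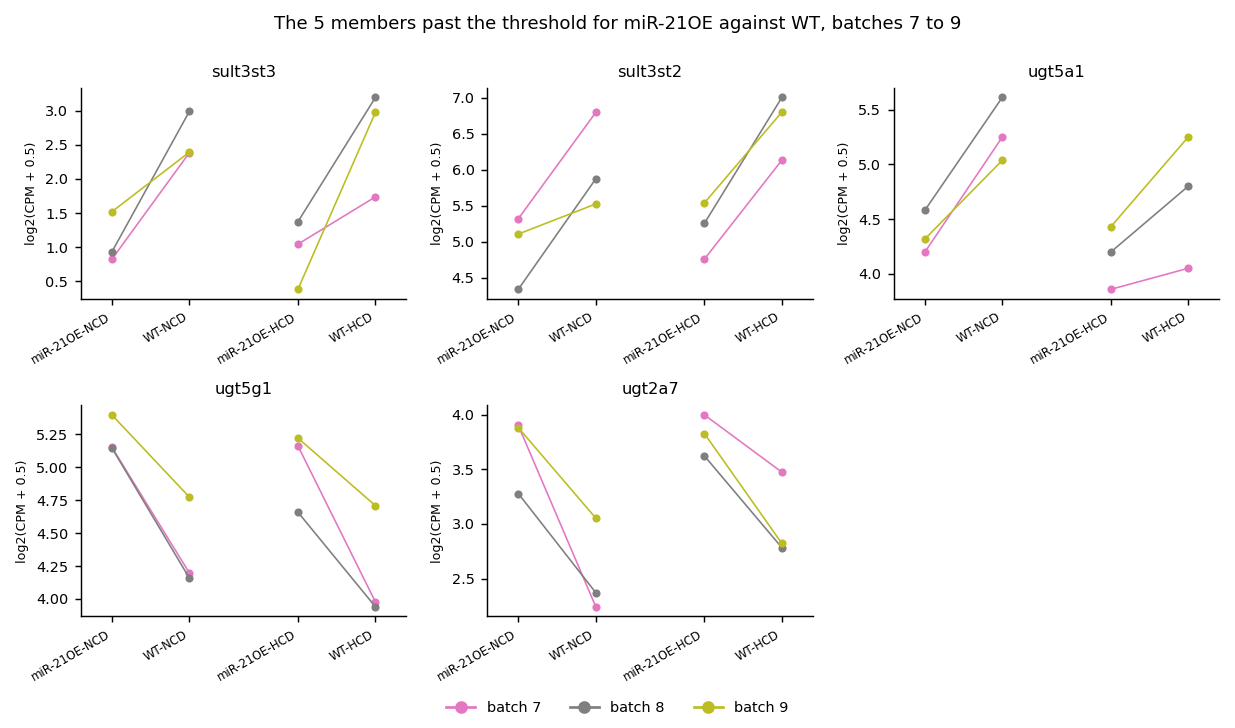
Level of the 5 called genes in the 12 libraries of batches 7 to 9, as log2 of CPM plus 0.5, with miR-21OE left of WT on each diet and a line joining the 2 libraries of a batch. All lines of the first 3 panels are lower at miR-21OE, and all lines of ugt5g1 and ugt2a7 are higher.

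On each diet taken alone, with 3 libraries a group, edgeR called no gene of the 3 families. For miR-21OE-NCD against WT-NCD, 0 of 64 were called against 0.268% of all genes, 12 had an unadjusted p below 0.05 (8.45% of all genes), and DESeq2 called 4 with the block (1.92%) and 0 without it (0.491%). The smallest p-values were those of ugt5g1 (log2 fold change 0.88, SE 0.19, adjusted p = 0.0991), ugt2a7 (1.17, SE 0.27, adjusted p = 0.127) and sult3st3 (-1.71, SE 0.42, adjusted p = 0.152) by edgeR. For miR-21OE-HCD against WT-HCD, 0 of 64 were called against 0.245% of all genes, 17 had an unadjusted p below 0.05 (8.29% of all genes), and DESeq2 called 3 with the block (1.59%) and 1 without it (0.38%). The smallest p-values were those of sult3st3 (log2 fold change -2.003, SE 0.42, adjusted p = 0.0987), ugt5g1 (0.82, SE 0.19, adjusted p = 0.133) and sult3st2 (-1.49, SE 0.38, adjusted p = 0.182). Each of these moved the same way in 3 of 3 batches. On HCD, sult3st3 passed with no filter on low counts (adjusted p = 0.041).

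Marker sums of other cells also differed in 1 direction in all 3 batches on at least 1 diet. Summed intestinal markers (11 genes) were higher in miR-21OE livers in 3 of 3 batches on NCD (627 to 843 CPM in miR-21OE, against 434 to 611 CPM in WT) and on HCD (745 to 918 CPM in miR-21OE, against 380 to 755 CPM in WT). Of the 10 intestinal markers tested, 9 had a fold change above 0 on NCD and 1 below. On HCD only 4 were above 0 and 6 below, with a median log2 fold change of -0.07. Endothelial markers (6 genes) were lower in 3 of 3 on NCD (72.8 to 85.8 CPM in miR-21OE, against 103 to 127 CPM in WT) and on HCD (95.8 to 106 CPM in miR-21OE, against 116 to 141 CPM in WT). Macrophage markers were higher in 3 of 3 on NCD (1.33 to 1.51 times) and in 2 of 3 on HCD (0.802 to 1.56 times). Neutrophil markers were lower in 3 of 3 on HCD (0.0935 to 0.467 times) and in 1 of 3 on NCD (0.8 to 2.6 times), and red blood cell markers (4 genes) were lower in 3 of 3 on HCD (0.561 to 0.947 times) and in 2 of 3 on NCD (0.808 to 1.17 times). No marker of these lists was at 0 in every library, but 2 of the 4 neutrophil markers were at 0 in all 3 miR-21OE-HCD libraries. The neutrophil sums there were near the floor, at 0.58 to 3.56 CPM, against 6.21 to 8.61 CPM in WT-HCD livers of these batches. In both of these groups 1 intestinal and 1 macrophage marker were at 0 as well. The part of these cells in the 5 results was not tested. The hepatocyte marker sum of miR-21OE-NCD livers was 0.908 to 0.949 times that of WT-NCD livers, and that of miR-21OE-HCD livers 0.788 to 1.82 times that of WT-HCD livers, higher in 2 of 3 batches. On NCD all 8 hepatocyte markers had a log2 fold change below 0, with a median of -0.07 and a lowest value of -4.11. On HCD 6 were above 0 and 2 below, with a median of 0.18 and a lowest value of -3.15. With the hepatocyte marker sum as a covariate the 5 genes had log2 fold changes of -1.87 (sult3st3), -1.35 (sult3st2), -0.81 (ugt5a1), 0.83 (ugt5g1) and 1.04 (ugt2a7), and all 5 passed (2.24% of all genes were called).

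Beyond the 3 families, MGST2, a microsomal glutathione transferase related to leukotriene C4 synthase, was called on both diets. It had 13.5 to 23.1 CPM (median 19.7) in miR-21OE-NCD livers, against 5.61 to 8.94 CPM in WT-NCD livers of the same batches, and 16.6 to 28.2 CPM in miR-21OE-HCD livers, against 4.37 to 12.4 CPM in WT-HCD livers. The averaged log2 fold change was 1.37 (SE 0.17, adjusted p = 0.0016), and it held in all 12 fits that left out a library, while the calls on NCD and HCD alone (adjusted p = 0.0405 and 0.0415) were lost in 9 and 10 of the 12. Over all genes 2.17% were called in the averaged contrast. Of 13 other phase II enzymes, MGST2 was higher and EPHX2, the soluble epoxide hydrolase, lower (15.4%). Of the 18 exporters and carriers, 3 were lower and none higher (16.7%), among them the neighbours abcc6b.1 and abcc6b.2, of the family of the mammalian liver transporter ABCC6 (log2 fold changes -1.92, adjusted p = 0.00237, and -1.99, adjusted p = 0.00282). Of 26 regulators and their targets, 3 were lower (11.5%), including 2 IDs with the symbol VDR, the vitamin D receptor (-1.07 and -1.10), and NQO1, a quinone reductase that NRF2 induces. NQO1 had 90.1 to 137 CPM in miR-21OE-NCD livers and 134 to 143 CPM in miR-21OE-HCD livers, against 188 to 405 CPM in all 9 WT-HCD and 209 to 741 CPM in all 9 WT-NCD livers, without overlap (log2 fold change -0.90, SE 0.17, adjusted p = 0.0172). Without the block the averaged calls of MGST2, abcc6b.1, abcc6b.2, NQO1 and 1 VDR ID were lost (adjusted p = 0.0609, 0.175, 0.19, 0.0513 and 0.0575).

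Within batches 7 to 9 alone, WT-HCD against WT-NCD gave 0 of 64 calls by edgeR (0.0831% of all genes), 5 at an unadjusted p below 0.05 (6.38%), and 2 calls by DESeq2 with the block (0.826%) and 0 without it (0.361%). The 3 genes with the smallest p among those with enough counts were sult3st4 (log2 fold change 1.48, SE 0.38, adjusted p = 0.297), gstr (-0.95, SE 0.25, adjusted p = 0.323) and ugt5a1 (-0.60, SE 0.25, adjusted p = 0.728). In miR-21OE-HCD against miR-21OE-NCD livers, 0 of 64 were called (0.00923% of all genes), 5 had an unadjusted p below 0.05 (4.34%), and DESeq2 called 0 with the block (0.24%) and without it (0.088%). The alpha-class gene gsta.2, of the class that in mammals detoxifies lipid peroxidation products, had 1.56, 0.956 and 1.03 CPM in miR-21OE-HCD livers, against 2.94, 4.54 and 7.05 CPM in miR-21OE-NCD livers (log2 fold change -2.01, SE 0.69, adjusted p = 1). The other alpha-class gene, gsta.1, had 22, 21.8 and 31.3 CPM in miR-21OE-HCD livers, against 34.8, 71.8 and 63.6 CPM in miR-21OE-NCD livers (-1.07, SE 0.43, adjusted p = 1). The libraries of these 2 diets did not overlap for either gene. Exocrine pancreas markers were also lower in 3 of 3 batches, at 2444, 543 and 748 CPM in miR-21OE-HCD livers, against 4035, 811 and 47175 CPM in miR-21OE-NCD livers. The library with most of them, miR-21OE-NCD 3, had the highest gsta.2 level of the miR-21OE libraries. The highest gsta.1 level of these was that of miR-21OE-NCD 2, which had 811 CPM of the pancreas markers. The part of these cells was not tested. sult2st1 had 17.7, 14.1 and 21.2 CPM in miR-21OE-HCD livers, against 18.1, 2.56 and 5.86 CPM in miR-21OE-NCD livers (1.36, SE 0.49, adjusted p = 1).

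The interaction of genotype and diet, which asks whether the diet changed miR-21OE and WT livers by different amounts, gave 0 calls among the 64 genes and 0 among all 21660 (0%) by edgeR. At an unadjusted p below 0.05 there was 1 of the 64 (2.1% of all genes), and DESeq2 called 0 of them with the block (0.0369%) and without it (0%). That gene was gsto2, with an interaction of -1.29 (SE 0.55, adjusted p = 1). It had 2.13, 2.3 and 1.74 CPM in miR-21OE-HCD livers and 3.14, 2.02 and 4.94 CPM in miR-21OE-NCD livers, against 4.44, 5.49 and 2.48 CPM in WT-HCD livers and 2.8, 2.83 and 2.74 CPM in WT-NCD livers. The next with enough counts were sult3st5 (-2.37, SE 1.11) and sult1st1 (1.17, SE 0.64). With 3 libraries a group these values leave wide intervals, and they do not show that the genotypes respond alike.

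The share of variance between batches in the 3 families was close to that of all genes. Over the 50 genes that averaged 50 counts or more, a median of 74.3% of the variance of log2 CPM in WT libraries lay between batch means. Over the 11697 genes of that depth the median was 75.1%. With so few WT libraries in a batch, a sizeable share lies between batch means even without a batch effect. That baseline was not computed, so the share does not measure the batch effect alone. Among the 9 WT-NCD libraries the highest level was a median of 4.01 times the lowest for these 50 genes, against 3.01 times for all 11697. ugt5d1, at 0 to 18.2 CPM in WT-NCD livers, had no such ratio because its lowest level was 0. The widest ratios of the others were those of ugt5e1 (19.1 times) and of the ugt1b neighbours ugt1b3, ugt1b1 and ugt1b4 (14.5, 13.3 and 12.4 times).

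**Figure D5:**
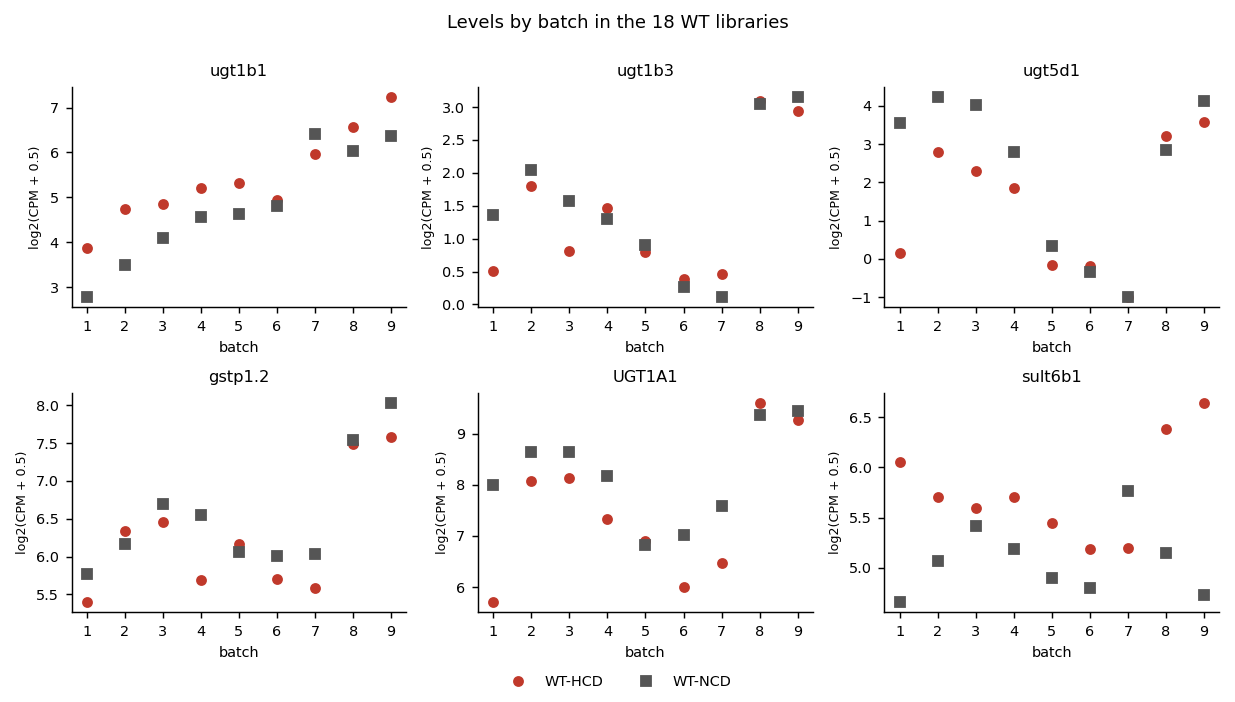
Level of 6 genes in the 18 WT libraries by batch, as log2 of CPM plus 0.5, with WT-HCD as circles and WT-NCD as squares. Both diets follow the batch for ugt1b1, ugt1b3, ugt5d1, gstp1.2 and UGT1A1, and less so for sult6b1, whose WT-HCD circle is above the WT-NCD square in 8 of 9 batches.

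For ugt1b1 all 6 WT libraries of batches 7 to 9 (62.3 to 149 CPM) lay above all 12 of batches 1 to 6 (6.34 to 39.4 CPM). ugt5d1 had 0 counts in both WT libraries of batch 7, and the miR-21OE libraries of that batch had 0.355 and 1.43 CPM. It was also low in the WT libraries of batches 5 and 6 (0.295 to 0.765 CPM) and in WT-HCD 1 (0.623 CPM). Other WT libraries reached 18.2 CPM, and miR-21OE-NCD 2 had 27.6 CPM. Between batch means lay 95.6% of the variance of ugt1b3 in WT libraries and 92.8% of that of gstp1.2. The genes with the smallest share were sult6b1 (17.1%), ugt2a7 (21.9%), gsto2 (23.1%) and sult3st2 (29.1%). Of these, gsto2 was called for diet above, and ugt2a7 and sult3st2 only for genotype. A difference between diets falls within batches and so lowers this share. A difference between genotypes does not enter it, since the share was taken in WT libraries. The shares of single genes were likewise not set against a baseline without a batch effect. The labels do not say what the libraries of a batch share, so clutch and handling cannot be told apart.

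By summed level, the GSTs made 515 ± 269 CPM in WT-HCD livers and 739 ± 232 CPM in WT-NCD livers, the UGTs 853 ± 515 CPM in WT-HCD livers and 1049 ± 377 CPM in WT-NCD livers, and the SULTs 370 ± 116 CPM in WT-HCD livers and 394 ± 56.9 CPM in WT-NCD livers (SD, n = 9 each). The 67 genes together made 0.0922% to 0.287% of the counts of a library.

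After batch means were taken out, the genes of the 3 families whose levels over the 24 libraries were most like that of gstt1b, among 59 that averaged 10 counts or more, were UGT1A1 (Pearson r = 0.889), ugt5a2 (0.865) and ugt5b5 (0.854). Those most like sult3st4 were ugt1b1 (0.779), sult6b1 (0.646) and sult3st5 (0.564), and those most like ugt5g1 were ugt2b1 (0.769), ugt2b5 (0.671) and sult1st6 (0.654). These values describe 24 libraries that differ in diet, genotype and hepatocyte marker sum, and the part of each was not tested.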

How the data were processed

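RNA of pooled larval livers was sequenced as paired reads of 150 bp from directional libraries depleted of ribosomal RNA. The submitters' processing notes name cutadapt 1.16, STAR 2.7.9a, featureCounts 1.6.3 and the build GRCz11, with no settings. The strand setting is not given in the sources used here, so overlapping, antisense and near-identical genes are uncertain. The deposited table holds raw counts per Ensembl gene ID, with no normalization by the authors. Of 32520 IDs, 29201 had a symbol in the gene name table used, and these are printed unaltered. The symbol GSTM3 belongs to 3 IDs, shown with the last digits of each. Neighbours were read from RefSeq's gene table of GRCz12tu, which held 60 of the 65 member symbols. No coordinates or sequences were used.

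Counts were fitted with edgeR 4.0.16 in R 4.3.3 (quasi-likelihood F-test, two-sided, TMM, genes with at least 10 counts over the fitted libraries, Benjamini-Hochberg threshold 0.05). The 18 WT libraries were 1 fit and the 12 libraries of batches 7 to 9 another, each with batch as a block. The SE is the log2 fold change divided by the square root of F. Batch paired the libraries: residuals from group means correlated between libraries of 1 batch with a mean r of 0.604 (minimum 0.378, 9 of 9 pairs over 0.1) in the 18 WT libraries and 0.46 (minimum 0.184, 18 of 18 over 0.1) in the 12. No 2 libraries of a group agreed within sampling noise. Nothing says that libraries of a group came from separate tanks, so p-values measure the spread between these clutch pools. Marker sums are CPM summed over fixed lists. On simulated counts for the diet contrast over 9 batches (23436 genes), 86% of 2-fold and all 4-fold changes (100 genes each) were recovered beside 13 false calls, and for the averaged genotype contrast (21142 genes) 69% and 94% beside 21 false calls. In both contrasts the false calls were a larger part of the calls than the threshold of 0.05 names, most so for genotype. The changed genes were all drawn from those that averaged 50 counts or more, so the recovery rates do not cover genes with fewer counts.

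Alternatives were no block, RLE size factors, library totals, other count filters, DESeq2 1.42.0 with and without the block, other sets of libraries, and leaving out each library. The named genes are those called, the 10 with the highest mean CPM, the 3 with the smallest p in contrasts with fewer than 3 calls, and called genes of the pathway lists (at most 6 per contrast). Others were named after their values were seen: EPHX1, gsto1, gstk4, gstk2, ugt5g2, ugt5d1 and the genes cited for batch spread. Some results of the pathway lists are not reported here. The genes and lists were chosen with earlier results of these data known.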

Additional observations from a re-analysis of the deposited data

How the results depend on the processing

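For WT-HCD against WT-NCD over 9 batches, 12 genes of the 3 families were called. There were 2 without the replicate block, 4 with DESeq2 and no block, 19 with DESeq2 and the block (all genes 3152, against 1791), 4 in batches 1 to 6 only, 2 in the batches with a hepatocyte marker ratio of at least 0.6 and 0 with the hepatocyte marker sum as a covariate, where the log2 fold change of gstt1a turned to 0.0208. Leaving out each library gave 5 to 16 calls. The count was 5 to 7 without either library of batches 1, 4, 6 or 7, WT-NCD 2 or WT-HCD 5, and the cause was not tested beyond the loss of that batch's pair. For miR-21OE against WT averaged over both diets, 5 were called, 1 without the replicate block and 11 with DESeq2 and the block (all genes 1176, against 469). Leaving out each library gave 2 to 10 calls, with 2 without WT-HCD 8 or miR-21OE-HCD 2, 3 without WT-NCD 7, WT-NCD 8, miR-21OE-NCD 1 or miR-21OE-NCD 2, and 10 without WT-HCD 7. The share of all genes called is not given here for batches 1 to 6 only or for the fits that left out a library. Those counts are therefore not set beside all genes, and a change in them may follow a change over all genes.

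For miR-21OE-NCD against WT-NCD, 0 were called in the replicate block fit, 4 with DESeq2 and the block and 3 when all 24 libraries were fitted together. For miR-21OE-HCD against WT-HCD, 0 were called, 3 with DESeq2 and the block, and 1 each with no filter, DESeq2 and no block, all 24 libraries, only the 6 libraries compared, and the hepatocyte covariate. On either diet the share of all genes called is given above only for the main fit and DESeq2. The other counts are not set beside all genes here. For WT-HCD against WT-NCD in batches 7 to 9, 0 were called and 2 with DESeq2 and the block. For these 3 contrasts, miR-21OE-HCD against miR-21OE-NCD and the interaction, leaving out each library gave 0 to 0 calls. RLE factors and filterByExpr changed no count by over 1.5 times. Every called gene of the families and all 17 named pathway results kept their direction under every alternative fixed at the start. Of the 386 pathway values recomputed there, 75 missed the threshold. In the hepatocyte marker fits, chosen after seeing the data, 12 of 23 pathway values did. Of the genes with the highest mean CPM that were not called for diet, gstp1.2 turned to 0.0822 and ugt2b1 to 0.284 on library totals. ugt2b1 turned to 0.00739 without the replicate block and sult3st2 to -0.0799 in batches 1 to 6. Leaving out each library gave -0.0269 to 0.25 for sult3st2 and -0.12 to 0.0354 for ugt2b1. With the hepatocyte covariate UGT1A1 turned to 0.172, ugt2a4 to 0.336, sult2st2 to 0.156 and ugt2b1 to 0.33, and ugt2b1 to 0.151 in the batches with a marker ratio of at least 0.6. gstk2 and ugt5g2 had too few counts to be tested, as had sult1st9 in the 12 libraries of batches 7 to 9, and sult5a1 had 239 counts in all.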
